A study of Mus musculus with 6 samples.

Results

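The genes described here are solute carriers, the membrane transporters whose mouse symbols begin with Slc and a family number. They were taken from the deposited expression table of J1 mouse embryonic stem cells by symbol, leaving out the facilitative glucose transporters Slc2a1 and Slc2a3 and the zinc carriers Slc30a and Slc39a, and were kept where their mean over the 6 libraries reached 1 FPKM (fragments per kilobase of transcript, scaled to the reads of the library). This gave 176 members of the 11227 genes that reached the same mean. Besides the symbol, the members were chosen by that mean level, which is given as a description. Of 341 symbols eligible by name, 165 stayed under it, and 24 of these were listed at 0 in every library. Just outside stood Slc5a11, Slc38a3 and Slc4a5 with means of 0.913, 0.968 and 0.994 FPKM, and just inside stood Slc8a2, Slc22a7 and Slc17a7 with 1.04, 1.04 and 1.07 FPKM. The members belong to 44 families, and 4 of them (Slc9a3r1, Slc9a3r2, Slc7a6os and Slc4a1ap) carry the symbol through a binding partner or a neighbouring gene and are not themselves carriers.

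Solute carriers move ions, nutrients and metabolites across membranes by facilitated diffusion or by coupling to the gradient of another solute. Channels and ATP-driven pumps are classed apart from them. Some act as a pair of subunits, such as the amino acid exchangers of the Slc7 family with the heavy chain Slc3a2, and the Slc25 family sits mainly in the inner mitochondrial membrane. Mouse embryonic stem cells are known for a high demand for amino acids, threonine in particular, and for nucleotide precursors.

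The cells were of strain 129S4/SvJae and came as 3 lines: a line with a short hairpin RNA (shRNA) against Carm1, an arginine methyltransferase, a line with a scramble shRNA, and the unmodified wild-type line. Each line was treated for 48 h with 1 µM retinoic acid (RA), a derivative of vitamin A that drives these cells out of pluripotency, or for the same time with the ethanol vehicle. All 6 cultures stood on gelatin, and LIF, a cytokine that maintains pluripotency, was present also with RA. There was 1 library per line and treatment. Each shRNA was represented by 1 line, nothing describes separate cultures, and the p-values therefore measure only the spread between these libraries. In the text the values of a treatment are given in the order Carm1 shRNA, scramble and wild-type line.

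Libraries held an estimated 24700000 (scramble line, vehicle) to 34500000 reads, at which 1 FPKM on a transcript of 2 kb rests on 49.4 to 68.9 reads. Carm1 stood at 6.73, 29.9 and 29.5 FPKM with RA and at 8.49, 36.1 and 37.0 FPKM with vehicle, that is at 22.6% and 23.5% of the scramble line in the Carm1 shRNA line. Of 7 stem cell markers, 6 were lower with RA and Nanog did not pass the test. Beside this and the marker counts that follow, 20.7% of all genes tested were lower with RA and 42.9% higher. Of 12 markers of extraembryonic endoderm, 5 reached the mean of 1 FPKM. Among these, Gata6, Sox7, Dab2 and Hnf4a were higher with RA and Apoe was lower. Those that were higher averaged under 1 FPKM with vehicle, so they reached the mean only through RA. The list summed to 38.4 to 62.0 FPKM with RA and to 52.6 to 173 FPKM with vehicle, mostly Apoe, and Afp and Ttr were at or near 0 in all libraries. Of 8 fibroblast markers, 4 were tested: Col1a1, Col1a2 and Pdgfrb were higher with RA and Thy1 was lower. Col1a1 and Col1a2 reached the mean only through RA, and Thy1 only through vehicle. Their list summed to 10.2 to 19.3 FPKM with RA and to 2.53 to 3.47 FPKM with vehicle, with Lum at or near 0 in all libraries. Of 7 neural markers, 6 were tested, with Pax6, Sox1 and Nes higher and Tubb3 and Elavl3 lower. Pax6 reached the mean only through RA. That list summed to 101 to 139 FPKM with RA and to 127 to 146 FPKM with vehicle. The part of these cell types in the results below was not tested, and in these bulk libraries fewer cells of a type and less RNA per cell cannot be told apart.

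More solute carriers rose with RA than fell. In a limma fit of line plus treatment on log2(FPKM + 1), 90 of the 176 members (51.1%) were higher with RA at an adjusted p under 0.05, against 42.9% of all genes tested. Lower with RA were 25 members (14.2%), against 20.7% of all genes tested, and 61 did not pass. The median change was 0.25 over the members and 0.14 over all genes tested, on the log2(FPKM + 1) scale on which every change below is given. The share that rose was higher than the background and the share that fell was lower, but the mean filter works on the same values: 19 members averaged under 1 FPKM with vehicle and passed only through their RA level, and 17 of these 19 rose. Only through their vehicle level did 2 members pass, and both fell. Among the 155 members that averaged at least 1 FPKM under both treatments, 73 (47.1%) rose and 23 (14.8%) fell, against 40.3% and 21.4% of the 10542 genes that met the same condition. The split also moved with the scaling. Median-of-ratios scaling, which puts the median of all genes at 0.0015, gave 72 higher and 42 lower (32.6% and 32.3% of all genes), and quantile normalization gave 55 higher and 55 lower (26.7% and 34.3% of all genes), with a median of -0.040 over the members and -0.05 over all genes. The fit was also run without the filter on the mean, over all genes whose estimate was marked OK in every library. The estimated changes stayed the same, but the variances were moderated anew over that set. There 50 rose and 18 fell (26.0% and 13.8% of the same 11227 genes). The calls of Slc1a5, Slc2a4, Slc5a3, Slc7a1, Slc7a6os, Slc7a7, Slc9a3r1, Slc9a3r2, Slc12a7, Slc15a2, Slc19a1, Slc25a5, Slc25a20, Slc27a2, Slc29a2, Slc31a1, Slc37a3, Slc40a1, Slc46a1, Slc48a1 and Slc51a ended among the members described below.

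All 3 RA libraries stood above all 3 vehicle libraries for 88 members (against 40.5% of all genes tested) and below them for 18 members (against 20.5% of all genes). A change of at least 2-fold in every line was met by 14 members upward and 4 downward, against 5.22% and 0.802% of all genes. Of the 14, 10 averaged under 1 FPKM with vehicle and passed the filter only through RA. Among the 155 members at 1 FPKM or more under both treatments, 4 rose (2.58%) and 3 fell (1.94%) by this measure, against 3.46% and 0.721% of the genes that met the same condition. The 10 largest rises, ranked by the response of the line that changed least, included Slc35g2, Slc25a24, Slc43a3, Slc38a5, Slc51a, Slc44a3, Slc37a2, Slc22a23 and Slc36a4. These 9 genes stood between 2.32 and 24.4 FPKM with RA, and none exceeded 3.68 FPKM with vehicle. The 10 largest falls were Slc7a3, Slc6a15, Slc9b2, Slc29a1, Slc20a1, Slc27a2, Slc7a5, Slc9b1, Slc37a1 and Slc29a2. Among these were the abundant carriers Slc7a5 and Slc29a1, each at 142 FPKM or more with vehicle in every line. Members with a 2-fold rise in the single lines numbered 24, 28 and 16 of 176, against 1065, 1280 and 698 of all 11227 genes, in the Carm1 shRNA, scramble and wild-type lines. In each single line 5 members (2.84%), 4 of them in all 3 lines, fell 2-fold, against 1.78%, 1.89% and 1.23% of all genes in the same order.

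**Figure D1:**
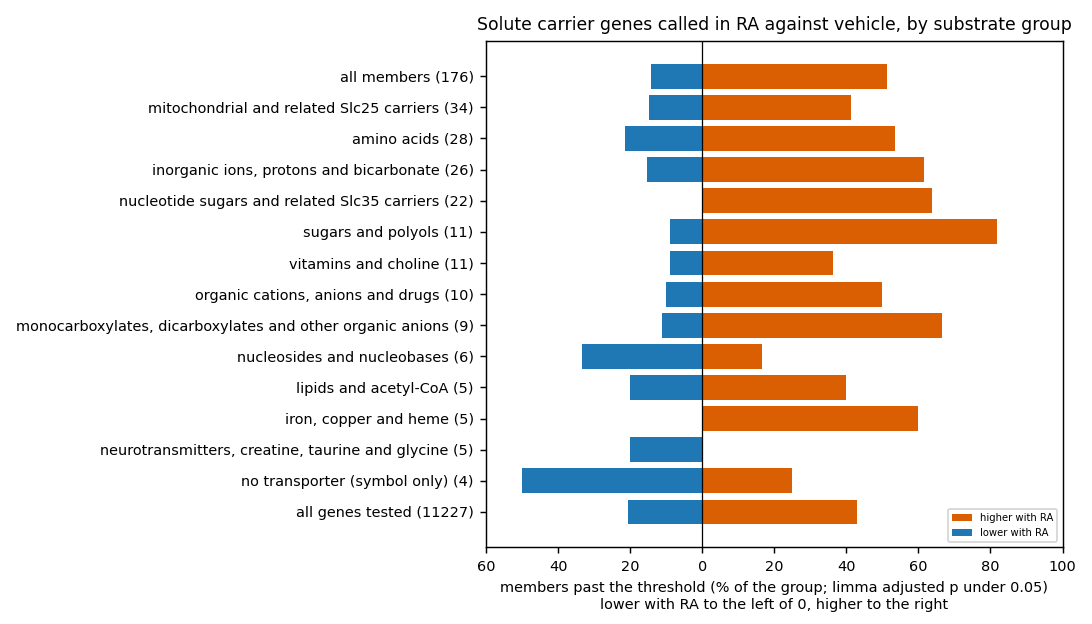
Share of each substrate group that passed the test with RA (limma adjusted p under 0.05), lower to the left of 0 and higher to the right, in percent of the group, with the number of members in brackets and all 11227 genes at the bottom. The groups include 19 members that averaged under 1 FPKM with vehicle and passed the filter only through RA. No nucleotide sugar carrier passed downward among 22, while 9 of 11 sugar and polyol carriers passed upward; with quantile normalization these became 3 lower nucleotide sugar carriers and 3 higher sugar carriers.

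**Figure D2:**
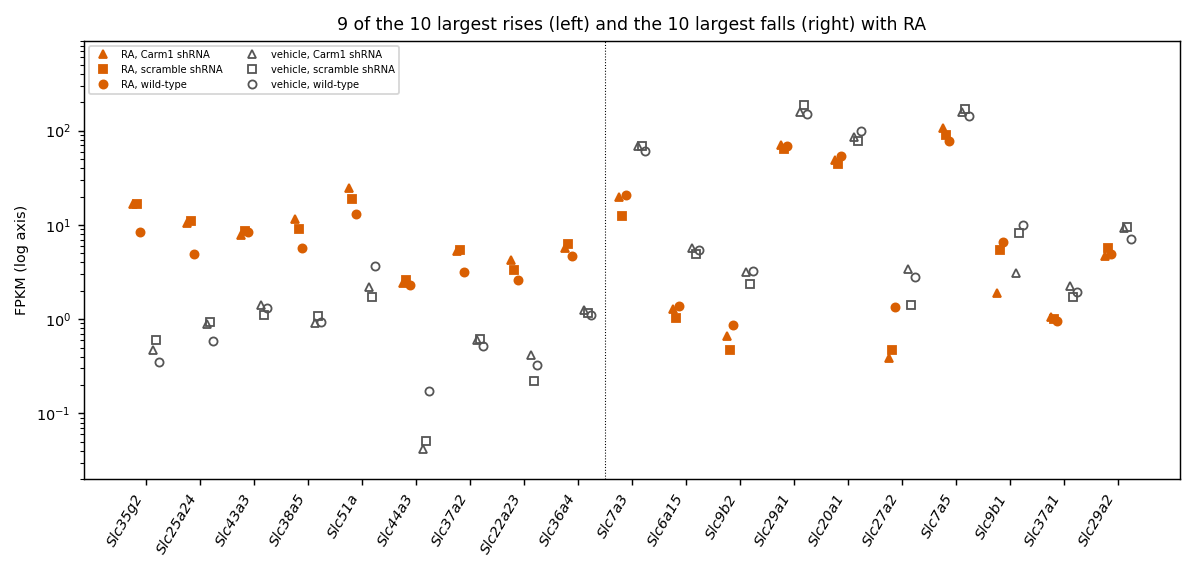
FPKM of each of the 6 libraries on a log axis for 9 of the 10 members with the largest rise and the 10 with the largest fall with RA, RA libraries filled and vehicle libraries open. The groups are apart in all but 1 of these genes: in Slc9b1 the Carm1 shRNA vehicle library lies among the RA libraries.

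Promoter windows from RefSeq (build GRCm38.p6, 250 bases before to 50 after the annotated start) were matched by symbol for 130 of the 176 members. The sequences below are those of 3 of the largest rises and of 2 of the largest falls, Slc9b1 being also the member that differed most in the Carm1 shRNA line. They are shown to let the letters of strongly rising and falling members be compared, on the gene's strand, with AGGTCA or its complement TGACCT in capitals. AGGTCA is the half-site that receptors for RA and other nuclear receptors bind in pairs.
Slc35g2, chr9:100571036-100571335, minus strand: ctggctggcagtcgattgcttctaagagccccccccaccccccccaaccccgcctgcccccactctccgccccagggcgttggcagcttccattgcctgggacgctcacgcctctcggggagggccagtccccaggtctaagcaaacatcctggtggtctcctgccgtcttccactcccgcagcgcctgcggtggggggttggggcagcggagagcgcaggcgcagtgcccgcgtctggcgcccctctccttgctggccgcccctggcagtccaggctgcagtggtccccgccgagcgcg
Slc51a, chr16:32487830-32488129, minus strand: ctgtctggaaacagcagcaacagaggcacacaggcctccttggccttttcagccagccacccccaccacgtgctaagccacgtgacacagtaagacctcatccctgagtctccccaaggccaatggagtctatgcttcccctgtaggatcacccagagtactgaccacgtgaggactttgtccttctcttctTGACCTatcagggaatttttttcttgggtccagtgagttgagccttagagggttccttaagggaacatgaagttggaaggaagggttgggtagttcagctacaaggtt
Slc38a5, chrX:8271131-8271430, plus strand: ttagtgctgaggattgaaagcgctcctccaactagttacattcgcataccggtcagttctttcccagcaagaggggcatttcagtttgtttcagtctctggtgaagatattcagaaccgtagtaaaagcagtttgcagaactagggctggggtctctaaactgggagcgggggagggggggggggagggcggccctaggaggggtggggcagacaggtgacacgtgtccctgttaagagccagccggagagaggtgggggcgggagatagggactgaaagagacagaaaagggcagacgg
Slc27a2, chr2:126552774-126553073, plus strand: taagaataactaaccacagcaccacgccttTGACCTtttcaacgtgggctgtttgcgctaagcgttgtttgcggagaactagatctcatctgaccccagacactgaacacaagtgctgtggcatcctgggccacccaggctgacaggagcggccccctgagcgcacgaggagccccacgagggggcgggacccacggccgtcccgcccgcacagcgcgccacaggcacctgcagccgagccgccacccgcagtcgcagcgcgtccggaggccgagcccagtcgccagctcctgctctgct
Slc9b1, chr3:135347779-135348078, plus strand: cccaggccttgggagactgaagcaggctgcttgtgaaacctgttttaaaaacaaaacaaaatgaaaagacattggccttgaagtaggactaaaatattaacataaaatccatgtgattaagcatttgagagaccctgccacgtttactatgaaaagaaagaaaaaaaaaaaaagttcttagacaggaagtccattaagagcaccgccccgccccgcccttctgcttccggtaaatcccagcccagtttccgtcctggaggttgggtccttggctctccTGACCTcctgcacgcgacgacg

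The window of Slc51a held the half-site once, as did those of Slc27a2 and Slc9b1, and those of Slc35g2 and Slc38a5 held none. Searched on both strands and in exact letters, AGGTCA was in the windows of 19 of the 130 members (14.6%) and of 14.4% of the 8510 tested genes with a window. It was in 8 of 67 members that rose (11.9%) and in 5 of 17 that fell (29.4%), and the 17 had more windows per gene (1.82, against 1.28 over the tested genes). Direct repeats of AGGTCA spaced by 1, 2 or 5 bases were in none of the 130 members' windows. Of the 8510 tested genes, 4 held the repeat spaced by 1 and none held those spaced by 2 or 5. The repeats were so rare that their absence says nothing particular about the members. The amino acid response core TGATGNAA was in 4 of the 130 members (3.08%) and in 2.53% of the tested genes, among the members that fell only in Slc7a7. The median GC content was 62.0% for the members and 61.5% for the tested genes.

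Amino acid carriers changed in both directions. Of 28 members that carry amino acids or peptides, 15 rose (53.6%) and 6 fell (21.4%), against 42.9% and 20.7% of all genes tested. After median-of-ratios scaling 11 rose and 7 fell, and after quantile normalization 11 rose and 10 fell. Among the 15, Slc15a2 and Slc38a5 averaged under 1 FPKM with vehicle and passed the filter only through RA. The falls were in the cationic and large neutral systems of the Slc7 family with their heavy chain, and in Slc6a15. The Slc7 family did not fall as a whole. Of its 8 symbols, with the non-carrier Slc7a6os, 5 fell and 2 rose. After median-of-ratios scaling 5 fell and 1 rose, and after quantile normalization 6 fell and 2 rose. The Slc38 family, sodium-coupled carriers of small neutral amino acids, had 6 of 8 members higher and none lower (4 higher after median-of-ratios scaling; 5 higher and 1 lower after quantile normalization).

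Slc7a3 (chromosome X, 98274560 to 98280691, build mm9), a carrier of arginine and lysine, had 19.6, 12.5 and 20.5 FPKM with RA, against 68.8, 68.9 and 60.2 FPKM with vehicle. Every RA library lay below every vehicle library, with the scramble line lowest under RA, and the change was -1.88 ± 0.17 (SE; adjusted p = 0.00103). Slc7a1, the widely expressed carrier of the same substrates, had 25.6, 22.5 and 23.3 FPKM with RA, against 29.6, 33.2 and 30.0 FPKM with vehicle. Its RA libraries were again all lower, by less, at -0.37 ± 0.09 (SE; adjusted p = 0.0147), and the call ended at -0.28 without the scramble line. In all 3 lines Slc7a3 was below Slc7a1 with RA and above it with vehicle.

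Slc7a5 (chromosome 8, 124405046 to 124431586) is the light chain of the exchanger of leucine and other large neutral amino acids, and Slc3a2 (chromosome 19, 8781372 to 8797859) is the heavy chain that carries it to the cell surface. Slc7a5 had 106, 89.5 and 78.3 FPKM with RA, against 159, 169 and 142 FPKM with vehicle. Slc3a2, with the highest mean of the amino acid group, had 125, 116 and 99.7 FPKM with RA, against 147, 148 and 134 FPKM with vehicle. For both genes the treatments did not overlap. The change was -0.78 ± 0.09 (SE; adjusted p = 0.00154) for Slc7a5 and -0.33 ± 0.07 (SE; adjusted p = 0.00993) for Slc3a2, and the call of Slc3a2 ended at -0.32 without the scramble line. The ratio of Slc7a5 to Slc3a2 was 0.846, 0.774 and 0.785 with RA, against 1.08, 1.14 and 1.06 with vehicle, so the light chain was below the heavy chain with RA and above it with vehicle in all 3 lines.

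Slc6a15 (chromosome 10, 102830442 to 102882013), a sodium-coupled carrier of proline and branched-chain amino acids, had 1.27, 1.03 and 1.39 FPKM with RA, against 5.74, 4.89 and 5.41 FPKM with vehicle. The RA libraries reached at most 1.39 FPKM and the vehicle libraries at least 4.89 FPKM, a change of -1.51 ± 0.07 (SE; adjusted p = 0.000281). Slc7a7, the light chain of an exchanger of cationic and neutral amino acids, had 41.7, 22.3 and 37.8 FPKM with RA, against 70.7, 48.1 and 40.2 FPKM with vehicle. Its treatments overlapped, and its change of -0.63 ± 0.19 (SE; adjusted p = 0.0328) lost the call at -0.58 without the Carm1 shRNA line and -0.42 without the scramble line. Slc7a7 shares 228 bases with Oxa1l, and without strand the reads there cannot be assigned.

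Slc38a5 (chromosome X, 7848518 to 7857302), a carrier of glutamine, serine and glycine, had 11.5, 9.08 and 5.75 FPKM with RA, against 0.904, 1.09 and 0.923 FPKM with vehicle. It was the member of the group with the largest rise, 2.26 ± 0.17 (SE; adjusted p = 0.000742), and its vehicle levels near 1 FPKM differed little between lines. Slc36a4 (chromosome 9, 15514213 to 15543233), a carrier of proline and tryptophan, had 5.73, 6.33 and 4.67 FPKM with RA, against 1.24, 1.17 and 1.10 FPKM with vehicle. The change was 1.59 ± 0.08 (SE, adjusted p = 0.000380), with no overlap. The most abundant Slc38 gene, Slc38a4, had 105, 106 and 116 FPKM with RA, against 77.5, 86.6 and 90.3 FPKM with vehicle. Its RA libraries were all higher, by 0.36 ± 0.07 (SE; adjusted p = 0.00678), and this call ended after median-of-ratios scaling (0.20). Slc38a2 and Slc38a1, carriers of the same type at 79.3 and 28.8 FPKM on average with RA and 74.2 and 28.8 FPKM with vehicle, did not pass (adjusted p = 0.451 and 0.955).

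Further rises were seen among the neutral amino acid exchangers and the peptide carriers. Slc43a1 and Slc43a2, uniporters of large neutral amino acids, averaged 5.86 ± 0.392 FPKM with RA and 2.86 ± 0.367 FPKM with vehicle (SD, n = 3 each), and 3.90 ± 0.697 FPKM with RA and 2.52 ± 0.535 FPKM with vehicle, with changes of 0.83 and 0.48 (adjusted p = 0.000753 and 0.00221; the second change was 0.04 and not called after quantile normalization). Slc1a5, an exchanger of glutamine and other neutral amino acids, had 31.0, 42.8 and 42.6 FPKM with RA, against 25.0, 25.0 and 23.9 FPKM with vehicle. The rise of 0.62 ± 0.12 (SE; adjusted p = 0.00720) was least in the Carm1 shRNA line. Slc15a2, a proton-coupled peptide carrier, averaged 2.04 ± 0.873 FPKM with RA and 0.598 ± 0.153 FPKM with vehicle and rose by 0.89 ± 0.12 (SE; adjusted p = 0.00240), while Slc15a1, of the same type, overlapped between treatments (adjusted p = 0.452).

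**Figure D3:**
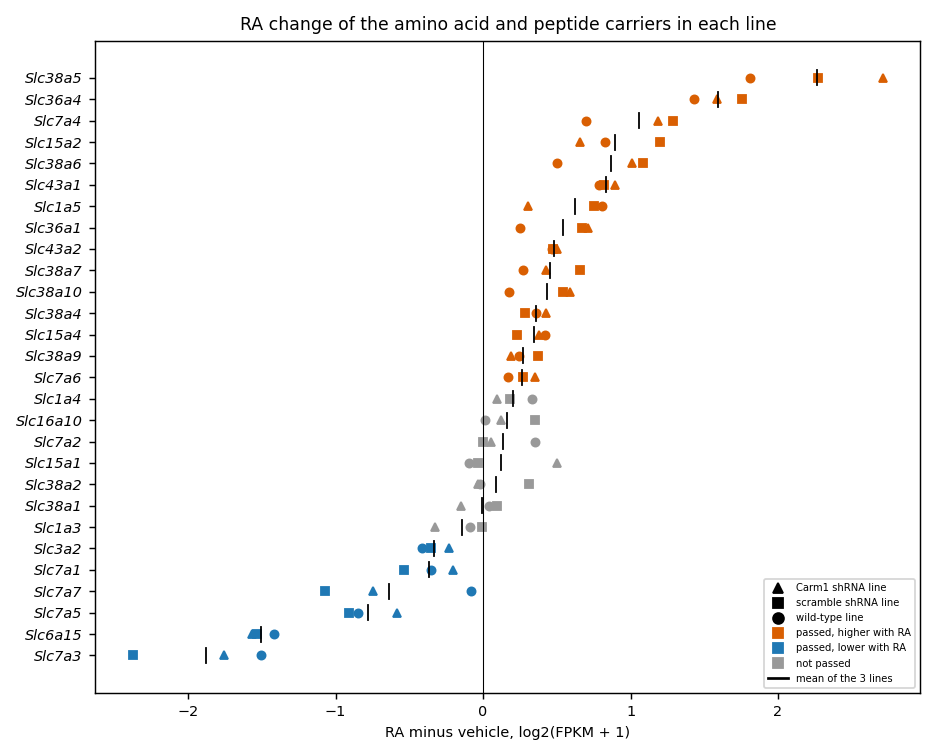
RA minus vehicle difference on the log2(FPKM + 1) scale for the 28 amino acid and peptide carriers, with 1 symbol per line and a bar at the mean of the 3 lines. Slc38a5 lies highest, between 1.81 and 2.71, and Slc7a3 lowest, between -2.38 and -1.51; for every gene past the test the 3 lines lie on 1 side of 0.

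Genes of the amino acid response, the programme of the transcription factor Atf4 that is known to raise several amino acid carriers, were lower with RA more often than higher. Of 21 tested, 9 were lower and 3 higher, with a median change of -0.17 against 0.14 over all genes. Of all genes tested, 20.7% were lower and 42.9% higher. After median-of-ratios scaling 13 of the 21 were lower and 3 higher, and after quantile normalization 12 were lower and 1 higher. Atf4 itself had 167, 151 and 154 FPKM with RA, against 232, 232 and 206 FPKM with vehicle, a change of -0.50 ± 0.07 (SE; adjusted p = 0.00295). The serine synthesis enzymes Psat1, Phgdh and Psph were lower (-0.67, -0.30 and -0.22), as were Trib3 (-0.86) and Chac1 (-0.86). Asns, the asparagine synthetase that is a textbook target of Atf4, had 186, 238 and 194 FPKM with RA, against 195, 245 and 211 FPKM with vehicle and did not pass (adjusted p = 0.318). Ddit3, Ddit4 and Cebpb were higher, by 0.40, 0.70 and 0.45.

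Most carriers of sugars and polyols rose. Of 11, 9 were higher (81.8%) and 1 was lower (9.09%), against 42.9% and 20.7% of all genes tested. Some of the 9, Slc2a4 and Slc37a2 among them, averaged under 1 FPKM with vehicle and passed the filter only through RA. After median-of-ratios scaling 7 were higher, and after quantile normalization 3 were higher and 2 lower. Slc37a2 (chromosome 9, 37036734 to 37063323), a glucose-6-phosphate and phosphate exchanger of the endoplasmic reticulum, had 5.26, 5.38 and 3.18 FPKM with RA, against 0.598, 0.618 and 0.519 FPKM with vehicle, a change of 1.80 ± 0.12 (SE; adjusted p = 0.000636) with no overlap. Its relative Slc37a1 (chromosome 17, 31432428 to 31487643) went the other way, with 1.05, 0.994 and 0.961 FPKM with RA, against 2.27, 1.73 and 1.95 FPKM with vehicle. All RA libraries were below all vehicle libraries, at -0.57 ± 0.07 (SE; adjusted p = 0.00216). The member with the highest mean, Slc37a3 (chromosome 6, 39284770 to 39327706), had 18.9, 20.9 and 14.5 FPKM with RA, against 13.8, 15.4 and 13.3 FPKM with vehicle. Its treatments overlapped, and its change of 0.32 ± 0.09 (SE; adjusted p = 0.0251) was not called at 0.27 without the Carm1 shRNA line and 0.27 without the scramble line, nor without the line term. Slc45a3, a proton-linked sugar carrier, averaged 3.32 ± 0.447 FPKM with RA and 1.39 ± 0.219 FPKM with vehicle (SD, n = 3 each) and rose by 0.85 ± 0.07 (SE; adjusted p = 0.000831). Slc2a4, the glucose transporter of muscle and fat, averaged 1.81 ± 0.192 FPKM with RA and 0.861 ± 0.224 FPKM with vehicle and rose by 0.60 ± 0.11 (SE; adjusted p = 0.00758), which quantile normalization reduced to 0.11, not called. Slc5a3, the sodium-coupled inositol carrier, overlaps Mrps6 over 29138 bases, and in its values (1.65, 3.18 and 2.05 FPKM with RA, against 1.08, 1.20 and 1.14 FPKM with vehicle) reads of that gene cannot be told apart.

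Carriers of nucleotide sugars feed the glycosyltransferases of the Golgi and the endoplasmic reticulum. With their Slc35 relatives they had 14 of 22 members higher (63.6%) and none lower, against 42.9% and 20.7% of all genes tested. With quantile normalization 5 were higher and 3 lower. Among the 14, Slc35g2 averaged under 1 FPKM with vehicle and passed the filter only through RA. Slc35g2 (chromosome 9, 100452607 to 100471504) had 16.7, 16.5 and 8.31 FPKM with RA, against 0.471, 0.600 and 0.347 FPKM with vehicle. It showed the largest rise of all members, 3.28 ± 0.16 (SE; adjusted p = 0.000338), with all vehicle libraries under 1 FPKM and the wild-type RA library the lowest with RA. Slc35f5 had 22.5, 24.0 and 19.1 FPKM with RA, against 14.2, 11.4 and 9.86 FPKM with vehicle, a change of 0.84 ± 0.09 (SE; adjusted p = 0.00150). Among those with a known substrate, Slc35b4 and Slc35d1, which bring UDP-linked sugars into these compartments, averaged 18.8 ± 2.52 FPKM with RA and 10.7 ± 0.605 FPKM with vehicle and 8.31 ± 0.572 FPKM with RA and 5.56 ± 0.697 FPKM with vehicle (SD, n = 3 each). They rose by 0.75 ± 0.09 (SE; adjusted p = 0.00165) and 0.51 ± 0.07 (SE; adjusted p = 0.00226), and the call of Slc35d1 ended with quantile normalization (0.19). Slc35a1, the CMP-sialic acid carrier, had 26.4, 26.2 and 22.8 FPKM with RA, against 17.5, 18.2 and 16.2 FPKM with vehicle and rose by 0.51 ± 0.06 (SE; adjusted p = 0.00204). Slc35b1 (chromosome 11, 95246236 to 95252966), the most abundant of the family and an exchanger of ATP for ADP at the endoplasmic reticulum, had 62.0, 62.6 and 65.6 FPKM with RA, against 56.7, 59.0 and 58.6 FPKM with vehicle. Its RA libraries were all higher but by little, and it did not pass (adjusted p = 0.134).

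The mitochondrial Slc25 carriers held the highest levels of all members, up to 745 FPKM. Of 34, 14 rose and 5 fell, that is 41.2% and 14.7%, against 42.9% and 20.7% of all genes tested, and after median-of-ratios scaling 8 rose and 10 fell. Among the 14, Slc25a24 and Slc25a31 averaged under 1 FPKM with vehicle and passed the filter only through RA. The carriers that exchange ADP for ATP across the inner membrane went in different directions. Slc25a4 (chromosome 8, 47292698 to 47296363), the form known from heart and muscle, had 514, 630 and 745 FPKM with RA, against 242, 336 and 366 FPKM with vehicle. The treatments did not overlap, and the change was 1.00 ± 0.07 (SE; adjusted p = 0.000644). Slc25a5 (chromosome X, 34335647 to 34338801), the form known from dividing cells and the member with the highest mean, had 640, 571 and 519 FPKM with RA, against 740, 739 and 588 FPKM with vehicle. Here the treatments overlapped, and the change of -0.25 ± 0.07 (SE; adjusted p = 0.0263) was not called at -0.28 without the Carm1 shRNA line and -0.19 without the scramble line, nor without the line term, without the filter or with quantile normalization. The ratio of Slc25a4 to Slc25a5 was 0.803, 1.10 and 1.44 with RA, against 0.327, 0.455 and 0.621 with vehicle. Within each line it was higher with RA, and under either treatment it was lowest in the Carm1 shRNA line and highest in the wild-type line. The sources used here do not say how reads shared with near-identical copies were counted. The third form, Slc25a31, known from testis, averaged 2.09 ± 0.466 FPKM with RA and 0.643 ± 0.0929 FPKM with vehicle (SD, n = 3 each) and rose by 0.90 ± 0.09 (SE; adjusted p = 0.00136).

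Slc25a24 (chromosome 3, 108926067 to 108971327), a calcium-regulated exchanger of ATP-magnesium for phosphate, had 10.6, 11.1 and 4.91 FPKM with RA, against 0.880, 0.924 and 0.590 FPKM with vehicle. All vehicle libraries were under 1 FPKM, the wild-type RA library was the lowest of the RA libraries, and the change was 2.39 ± 0.16 (SE; adjusted p = 0.000650). Slc25a20, which brings acylcarnitines into the matrix for fatty acid oxidation, had 18.4, 18.8 and 22.1 FPKM with RA, against 8.04, 9.18 and 17.1 FPKM with vehicle. Its change of 0.81 ± 0.15 (SE; adjusted p = 0.00777) was smallest in the wild-type line, and the call ended at 0.73 without the scramble line. Slc25a10, the dicarboxylate carrier, averaged 6.85 ± 0.829 FPKM with RA and 3.46 ± 0.483 FPKM with vehicle (SD, n = 3 each), with a change of 0.82 ± 0.06 (SE; adjusted p = 0.000778). Slc25a11, the oxoglutarate carrier, averaged 50.1 ± 2.71 FPKM with RA and 36.7 ± 1.85 FPKM with vehicle, with a change of 0.44 ± 0.06 (SE; adjusted p = 0.00304). Slc25a51, a carrier of NAD, had 16.8, 18.6 and 15.0 FPKM with RA, against 9.81, 8.77 and 9.78 FPKM with vehicle and rose by 0.77 ± 0.10 (SE; adjusted p = 0.00239). Abundant carriers without a call included the phosphate carrier Slc25a3, at 307 ± 3.28 FPKM with RA and 336 ± 12.9 FPKM with vehicle (SD, n = 3 each; adjusted p = 0.120), and the aspartate-glutamate carrier Slc25a13, at 73.0 ± 11.3 FPKM with RA and 72.5 ± 1.88 FPKM with vehicle (adjusted p = 0.998).

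**Figure D4:**
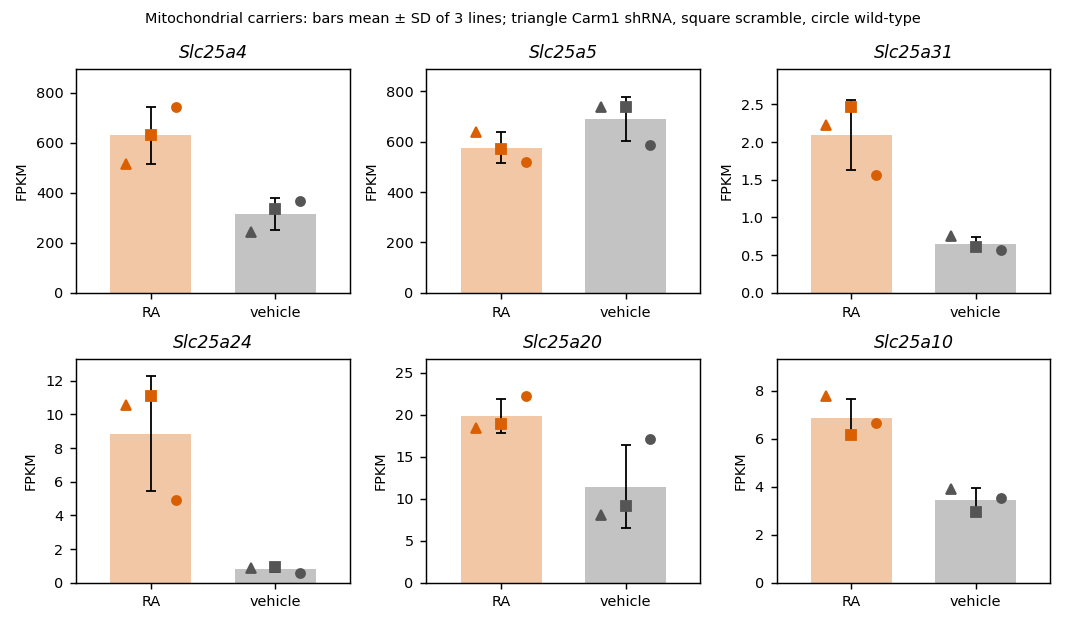
FPKM of 6 mitochondrial carriers with RA and with vehicle: bars are the mean and error bars the SD of the 3 lines, and symbols are single libraries. Slc25a4 averages 630 FPKM with RA and 314 FPKM with vehicle, whereas Slc25a5 averages 576 FPKM with RA and 689 FPKM with vehicle with overlapping libraries.

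Among 26 carriers of inorganic ions and protons, 16 rose (61.5%) and 4 fell (15.4%), against 42.9% and 20.7% of all genes tested. With quantile normalization 9 rose and 7 fell. The 16 included a member that averaged under 1 FPKM with vehicle and passed the filter only through RA. Slc26a2, the sulfate carrier needed for proteoglycan sulfation, had 17.5, 17.3 and 16.7 FPKM with RA, against 5.79, 6.56 and 7.40 FPKM with vehicle and rose by 1.27 ± 0.09 (SE; adjusted p = 0.000670). Slc41a1, a magnesium carrier, had 42.7, 35.8 and 32.7 FPKM with RA, against 19.9, 17.6 and 19.2 FPKM with vehicle and rose by 0.93 ± 0.09 (SE; adjusted p = 0.00106). In both, the treatments were well apart. The bicarbonate exchanger Slc4a3 averaged 5.45 ± 1.11 FPKM with RA and 2.25 ± 0.886 FPKM with vehicle (SD, n = 3 each) and rose by 1.01 ± 0.12 (SE; adjusted p = 0.00183). Slc24a6, the sodium-calcium exchanger of mitochondria, averaged 12.8 ± 1.33 FPKM with RA and 6.54 ± 0.463 FPKM with vehicle and rose by 0.87 ± 0.10 (SE; adjusted p = 0.00157). The potassium-chloride cotransporter Slc12a7 rose by 0.58 ± 0.11 (SE; adjusted p = 0.00872), while its relative Slc12a4 did not pass (adjusted p = 0.229).

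The falls among ion carriers included the phosphate carrier Slc20a1 (chromosome 2, 129024509 to 129037348), the most abundant of the group, which had 49.1, 44.0 and 54.4 FPKM with RA, against 84.9, 77.9 and 98.9 FPKM with vehicle. The treatments did not overlap, at -0.81 ± 0.06 (SE; adjusted p = 0.000742), and the ratio to its relative Slc20a2, which did not pass (adjusted p = 0.649), was 1.42, 1.43 and 1.58 with RA, against 2.71, 2.65 and 2.72 with vehicle. Slc9b2 (chromosome 3, 134970664 to 135005731), a sodium-proton exchanger, had 0.657, 0.466 and 0.867 FPKM with RA, against 3.16, 2.34 and 3.21 FPKM with vehicle. All RA libraries were under 1 FPKM, and the change was -1.23 ± 0.07 (SE; adjusted p = 0.000408). Its neighbour Slc9b1 (chromosome 3, 135011001 to 135060791), known from sperm, had 1.91, 5.48 and 6.63 FPKM with RA, against 3.12, 8.25 and 9.96 FPKM with vehicle. Within every line the RA library was lower, with changes of -0.50, -0.51 and -0.52, but the spread between lines was wider than the change, so that the treatments overlapped. The change was -0.51 ± 0.06 (SE; adjusted p = 0.00183) with the line in the fit, and it was not called without the line term. Slc4a11 averaged 1.72 ± 0.186 FPKM with RA and 3.18 ± 0.277 FPKM with vehicle (SD, n = 3 each) and fell, with a change of -0.62 ± 0.09 (SE; adjusted p = 0.00282).

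Of 5 carriers of iron, copper and heme, 3 rose (60%) and none fell, against 42.9% and 20.7% of all genes tested. With quantile normalization 1 fell. Among the 3, Slc40a1 averaged under 1 FPKM with vehicle and passed the filter only through RA. Slc40a1, the iron exporter ferroportin, had 4.85, 4.23 and 1.75 FPKM with RA, against 0.144, 0.205 and 0.341 FPKM with vehicle. No vehicle library exceeded 0.341 FPKM, and the wild-type RA library was the lowest of the RA libraries. The change was 1.84 ± 0.26 (SE; adjusted p = 0.00299). Slc48a1, a heme carrier, had 9.84, 9.03 and 7.72 FPKM with RA, against 4.55, 3.93 and 5.96 FPKM with vehicle and rose by 0.77 ± 0.15 (SE; adjusted p = 0.00835), not called at 0.65 without the scramble line; it shares 29 bases with Hdac7. Slc31a1 (chromosome 4, 62021735 to 62052803), the copper importer and the most abundant of the 5, had 21.5, 22.3 and 19.7 FPKM with RA, against 14.9, 15.3 and 16.4 FPKM with vehicle. It rose by 0.42 ± 0.08 (SE; adjusted p = 0.00758), not called at 0.38 without the scramble line. The iron importer Slc11a2 had no overlap between treatments either, yet its change of 0.15 did not pass (adjusted p = 0.0946).

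Of 11 carriers of vitamins and choline, 4 rose (36.4%) and 1 fell (9.09%), against 42.9% and 20.7% of all genes tested. After median-of-ratios scaling 4 rose and 6 fell. Among the 4 that rose, Slc19a3 and Slc44a3 averaged under 1 FPKM with vehicle and passed the filter only through RA. The folate carriers moved apart: Slc46a1, the proton-coupled folate carrier, had 17.0, 18.8 and 15.0 FPKM with RA, against 5.74, 7.06 and 8.67 FPKM with vehicle, and the reduced folate carrier Slc19a1 had 10.5, 9.80 and 7.64 FPKM with RA, against 12.7, 14.5 and 11.5 FPKM with vehicle. Both were without overlap, with changes of 1.15 ± 0.15 (SE; adjusted p = 0.00222) and -0.43 ± 0.08 (SE; adjusted p = 0.00757), and the call of Slc19a1 ended at -0.39 without the scramble line. The thiamine carriers differed likewise. Slc19a3 had 2.48, 2.71 and 1.55 FPKM with RA, against 0.478, 0.479 and 0.481 FPKM with vehicle, a rise of 1.12 ± 0.12 (SE; adjusted p = 0.00147), whereas Slc19a2 (chromosome 1, 166179177 to 166195516), the most abundant of the group, had 37.1, 39.1 and 35.1 FPKM with RA, against 44.9, 53.7 and 36.2 FPKM with vehicle, overlapped and did not pass (adjusted p = 0.0627). Slc44a3 (chromosome 3, 121162446 to 121235262), a choline transporter-like gene, had 2.40, 2.61 and 2.32 FPKM with RA, against 0.0424, 0.0510 and 0.174 FPKM with vehicle. It was near 0 with vehicle, and its change was 1.66 ± 0.08 (SE; adjusted p = 0.000320). Its relative Slc44a1 averaged 26.2 ± 0.174 FPKM with RA and 30.0 ± 2.09 FPKM with vehicle (SD, n = 3 each) and did not pass (adjusted p = 0.0642).

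Of 9 carriers of carboxylates, bile acids and other organic anions, 6 rose (66.7%) and 1 fell (11.1%). The shares of all genes tested were 42.9% and 20.7%. Some of the 6, Slc16a14 among them, averaged under 1 FPKM with vehicle and passed the filter only through RA. After median-of-ratios scaling 5 were higher and 1 lower, and after quantile normalization 5 were higher and 2 lower. Slc51a (chromosome 16, 32475664 to 32487965), a subunit of the exporter of bile acids and steroids, had 24.4, 19.0 and 13.0 FPKM with RA, against 2.20, 1.71 and 3.68 FPKM with vehicle. It rose by 2.49 ± 0.29 (SE; adjusted p = 0.00172), least in the wild-type line, where vehicle was highest and RA lowest. Slc16a14 had 3.96, 4.95 and 2.23 FPKM with RA, against 0.708, 1.20 and 0.548 FPKM with vehicle, a change of 1.35 ± 0.11 (SE; adjusted p = 0.000819) without overlap. Slc16a1 (chromosome 3, 104442591 to 104462385), the main lactate carrier and the most abundant of the group, had 43.2, 47.6 and 46.0 FPKM with RA, against 51.1, 53.5 and 56.3 FPKM with vehicle. Its RA libraries were all lower, with a change of -0.23 ± 0.06 (SE; adjusted p = 0.0261), and the call ended when any single line was left out, at -0.23 without the Carm1 shRNA line and -0.26 without the scramble line and -0.20 without the wild-type line. The ancillary proteins of the Slc16 carriers, Bsg and Emb, and the related Nptn were higher with RA, by 0.29, 0.66 and 0.93.

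Of 10 carriers of organic cations, anions and drugs, 5 rose (50%) and 1 fell (10%), against 42.9% and 20.7% of all genes tested. Among the 5, Slc18a1, Slc22a17 and Slc22a23 averaged under 1 FPKM with vehicle and passed the filter only through RA. With quantile normalization 4 rose and 4 fell. Slc22a23 (chromosome 13, 34271027 to 34437051) had 4.25, 3.28 and 2.63 FPKM with RA, against 0.418, 0.220 and 0.328 FPKM with vehicle, a change of 1.72 ± 0.10 (SE; adjusted p = 0.000490), and Slc22a17, known as a receptor of lipocalin 2, had 3.36, 6.14 and 3.94 FPKM with RA, against 0.980, 0.962 and 0.957 FPKM with vehicle, a change of 1.45 ± 0.15 (SE; adjusted p = 0.00127). In both the vehicle libraries were all under 1 FPKM. Slc22a5, the carnitine importer of the plasma membrane, averaged 3.84 ± 0.249 FPKM with RA and 2.25 ± 0.269 FPKM with vehicle (SD, n = 3 each) and rose by 0.58 ± 0.08 (SE; adjusted p = 0.00274), not called with quantile normalization (0.13). Slc17a5, the lysosomal exporter of sialic acid, averaged 3.60 ± 0.813 FPKM with RA and 1.55 ± 0.0446 FPKM with vehicle and rose by 0.83 ± 0.10 (SE; adjusted p = 0.00213). Slc18a1, a vesicular carrier of monoamines, averaged 2.21 ± 0.621 FPKM with RA and 0.730 ± 0.312 FPKM with vehicle and rose by 0.89 ± 0.08 (SE; adjusted p = 0.000916), but it shares 487 bases with Atp6v1b2, a gene at 131 FPKM with RA and 115 FPKM with vehicle. Slc47a1 (chromosome 11, 61156902 to 61191577), the exporter of organic cations, had 2.44, 3.04 and 3.77 FPKM with RA, against 3.59, 4.14 and 4.93 FPKM with vehicle, a change of -0.36 ± 0.06 (SE; adjusted p = 0.00590) that was not called without the line term.

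The nucleoside carriers Slc29a1 and Slc29a2 fell, and the nucleobase carrier Slc43a3 rose. Of 6 members, 1 rose (16.7%) and 2 fell (33.3%), against 42.9% and 20.7% of all genes tested. With quantile normalization 5 fell. Slc29a1 (chromosome 17, 45722149 to 45736552), the equilibrative carrier that imports adenosine, thymidine and other nucleosides and the most abundant of the group, had 69.9, 63.2 and 69.4 FPKM with RA, against 156, 187 and 151 FPKM with vehicle. The RA libraries lay close together, all below the vehicle libraries, at -1.27 ± 0.11 (SE; adjusted p = 0.000875). Slc29a2 (chromosome 19, 5024006 to 5031972), of the same type, had 4.73, 5.72 and 4.96 FPKM with RA, against 9.29, 9.53 and 7.14 FPKM with vehicle, a change of -0.65 ± 0.09 (SE; adjusted p = 0.00317). Slc43a3 (chromosome 2, 84776803 to 84798666), a carrier of purine nucleobases, had 7.78, 8.61 and 8.34 FPKM with RA, against 1.40, 1.11 and 1.30 FPKM with vehicle. It rose by 2.03 ± 0.08 (SE; adjusted p = 0.000239), almost equally in the 3 lines (1.87, 2.19 and 2.02).

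Of 5 carriers of lipids and acetyl-CoA, 2 rose (40%) and 1 fell (20%), against 42.9% and 20.7% of all genes tested. The member that fell, Slc27a2, averaged under 1 FPKM with RA and passed the filter only through vehicle. Of 5 carriers of neurotransmitters, taurine and creatine, none rose and 1 fell (20%). Of the 4 members that are no carriers, 1 rose (25%) and 2 fell (50%). Slc33a1 (chromosome 3, 63746246 to 63768655), which brings acetyl-CoA into the endoplasmic reticulum, had 16.6, 16.0 and 13.5 FPKM with RA, against 9.69, 10.4 and 7.41 FPKM with vehicle and rose by 0.69 ± 0.07 (SE; adjusted p = 0.00134). Slc27a4, a fatty acid transport protein, had 14.4, 13.6 and 12.6 FPKM with RA, against 8.72, 8.02 and 8.23 FPKM with vehicle and rose by 0.64 ± 0.07 (SE; adjusted p = 0.00130). Slc27a2 (chromosome 2, 126378760 to 126413979), a long-chain acyl-CoA synthetase of the same family, had 0.386, 0.468 and 1.35 FPKM with RA, against 3.43, 1.41 and 2.81 FPKM with vehicle. Its treatments did not overlap, though the vehicle levels differed among lines, and the change was -1.03 ± 0.21 (SE; adjusted p = 0.00947). Among 5 carriers of neurotransmitters, taurine and creatine, the creatine carrier Slc6a8 fell, with 27.1, 21.2 and 19.8 FPKM with RA, against 33.3, 28.3 and 28.4 FPKM with vehicle and a change of -0.39 ± 0.07 (SE; adjusted p = 0.00643). The taurine carrier Slc6a6 (chromosome 6, 91634061 to 91709057), the most abundant, had 25.0, 26.3 and 34.2 FPKM with RA, against 22.3, 20.9 and 37.8 FPKM with vehicle, with overlap and no call (adjusted p = 0.376). Of the 4 members that are no carriers, the scaffold Slc9a3r1 fell, at -0.59 ± 0.11 (SE; adjusted p = 0.00741), and its relative Slc9a3r2 rose, at 0.63 ± 0.09 (SE; adjusted p = 0.00345). Slc7a6os (chromosome 8, 108724338 to 108734833), the most abundant of the 4, had 26.3, 26.8 and 31.0 FPKM with RA, against 35.2, 30.8 and 33.6 FPKM with vehicle, a change of -0.24 ± 0.08 (SE; adjusted p = 0.0490) that was not called at -0.15 without the Carm1 shRNA line and -0.26 without the scramble line.

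Calls in both directions were found in 8 of the 20 families with at least 2 called members: Slc4, Slc7, Slc9, Slc16, Slc19, Slc25, Slc27 and Slc37. The non-carriers Slc7a6os, Slc9a3r1 and Slc9a3r2 are counted in Slc7 and Slc9. No such count was made for families of other genes, so the 8 are a description only. Carriers of the same classes whose symbols do not begin with Slc and a number were counted beside the members. Of 16 tested, 13 were higher with RA and 1 was lower, with a median change of 0.63; with quantile normalization 8 were higher and 2 lower. Of all genes tested, 42.9% were higher and 20.7% lower. Among the 13, Rhcg, Slco2a1 and Slco5a1 averaged under 1 FPKM with vehicle and passed the filter only through RA. The phosphate exporter Xpr1 had 13.3, 13.1 and 11.2 FPKM with RA, against 4.72, 4.73 and 5.67 FPKM with vehicle, a rise of 1.16 ± 0.11 (SE; adjusted p = 0.00110), and Mtch1, of the Slc25 class, had 71.0, 81.3 and 70.9 FPKM with RA, against 41.1, 49.9 and 51.6 FPKM with vehicle, a rise of 0.64 ± 0.09 (SE; adjusted p = 0.00255). Slco4a1, an organic anion carrier, was the gene that was lower, with 2.48 to 3.02 FPKM with RA, against 5.87 to 7.23 FPKM with vehicle, and a change of -1.02 ± 0.06 (SE; adjusted p = 0.000490). Of 16 tested partners and regulators of carriers, 8 were higher and 2 lower, and 5 and 5 after median-of-ratios scaling. Among the 8, Stk39 averaged under 1 FPKM with vehicle and passed the filter only through RA. The kinase Stk39, which phosphorylates Slc12 carriers, had 2.68, 2.57 and 1.47 FPKM with RA, against 0.959, 0.369 and 0.358 FPKM with vehicle, a rise of 1.05 ± 0.12 (SE; adjusted p = 0.00163), while the kinase Sgk1 had 231, 157 and 120 FPKM with RA, against 287, 211 and 236 FPKM with vehicle, a change of -0.57 ± 0.14 (SE; adjusted p = 0.0179). Of the 165 eligible genes under the mean of 1 FPKM, 79 (47.9%) were higher and 9 (5.45%) were lower with RA in all 3 lines, against 30.8% and 4.61% of all 9233 genes under that mean. At these levels single reads count, and 14.5% of the 165, against 34.9% of the 9233, were at 0 in every library.

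Between the lines, the share of members called was at or below that of all genes. For the Carm1 shRNA line against the scramble line, limma called none of the 176 members and 2 of all 11227 genes (0.0178%), and at an unadjusted p under 0.05 it gave 22 members (12.5%, against 10.6% of all genes). The scramble line against the wild-type line gave no member (1.79% of all genes) and 45 at the unadjusted p (25.6%, against 23.9% of all genes). For the Carm1 shRNA line against the wild-type line, 8 members were called (4.55%, against 5.68% of all genes), 2 higher and 6 lower, and 48 had an unadjusted p under 0.05 (27.3%, against 27.5% of all genes). The wild-type line carries no shRNA, so each gene's value against the scramble line is given beside that against the wild-type line.

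Slc9b1 was the member that stood apart. In the Carm1 shRNA line it was at 1.91 FPKM with RA and 3.12 FPKM with vehicle. The scramble line had 5.48 FPKM with RA and 8.25 FPKM with vehicle, and the wild-type line 6.63 FPKM with RA and 9.96 FPKM with vehicle. Under both treatments it was the only member at least 2-fold from both control lines in the same direction, as were 0.312% of all genes with RA and 0.169% with vehicle. Set in the same way against the other lines, neither the scramble line nor the wild-type line gave a member. Over all genes tested, the wild-type line gave 61 higher and 7 lower with vehicle, and 54 and 43 with RA. The Carm1 shRNA line gave 10 and 9 with vehicle, and 19 and 16 with RA. The scramble line gave 1 and 1 with vehicle, and 3 and 5 with RA. The difference was -1.40 ± 0.07 (SE; adjusted p = 0.00466) against the wild-type line and -1.16 ± 0.07 (SE; adjusted p = 0.0523) against the scramble line. The second was called when the wild-type line was left out (adjusted p = 0.0296), with a trended variance (0.0161) or over genes of at least 5 FPKM (0.0165). It was not called with median-of-ratios scaling (0.0531), with the smaller pseudocount of 0.1 FPKM (0.0724), without the filter (0.101) or with quantile normalization (0.156). Its neighbour Slc9b2, the sodium-proton exchanger described above, was at 0.25 ± 0.08 (SE; adjusted p = 0.391) against the scramble line. The promoter window of Slc9b1 is the last of those printed above.

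The other members called against the wild-type line held intermediate scramble levels in most cases. Slc44a2, a choline transporter-like gene, had 20.1, 16.8 and 9.09 FPKM with RA, against 18.7, 13.3 and 9.18 FPKM with vehicle, so that it was highest in the Carm1 shRNA line and lowest in the wild-type line. It was higher by 1.01 ± 0.11 (SE; adjusted p = 0.0224) against the wild-type line and by 0.35 ± 0.11 (SE; adjusted p = 0.352) against the scramble line. Slc29a4 (chromosome 5, 143178055 to 143198443), a carrier of monoamines and adenosine, had 5.93, 5.14 and 3.94 FPKM with RA, against 6.38, 5.14 and 4.21 FPKM with vehicle and was higher by 0.49 ± 0.08 (SE; adjusted p = 0.0351) against the wild-type line and by 0.22 ± 0.08 (SE; adjusted p = 0.413) against the scramble line. Slc25a4, described above, was lower, with differences of -0.57 ± 0.08 (SE; adjusted p = 0.0329) and -0.38 ± 0.08 (SE; adjusted p = 0.260) in the same order of comparisons. Slc9a3r1, a scaffold that binds carriers and receptors, had 17.9, 17.4 and 27.3 FPKM with RA, against 22.2, 30.6 and 44.6 FPKM with vehicle. With RA its shRNA lines were alike. The difference was -0.78 ± 0.14 (SE; adjusted p = 0.0432) against the wild-type line and -0.20 ± 0.14 (SE; adjusted p = 0.657) against the scramble line. Slc25a26 (chromosome 6, 94450308 to 94554646), the mitochondrial carrier of S-adenosylmethionine, had 2.82, 2.94 and 4.04 FPKM with RA, against 3.76, 3.72 and 5.43 FPKM with vehicle, with adjusted p = 0.0476 against the wild-type line and 0.964 against the scramble line. It shares 124 bases with Lrig1, which averaged 7.18 FPKM with RA and 1.36 FPKM with vehicle. Slc47a1 had adjusted p = 0.0472 and 0.467. When the scramble line was left out, of the 8 calls that of Slc9b1 alone was made.

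**Figure D5:**
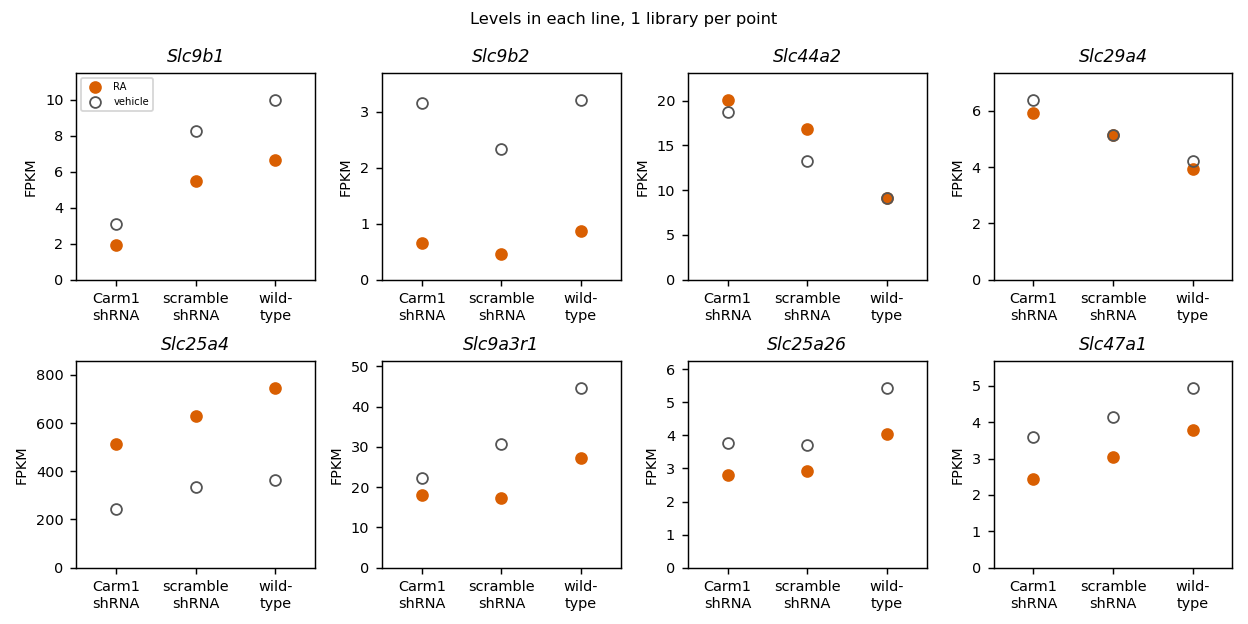
FPKM of Slc9b1, its neighbour Slc9b2 and 6 of the other 7 members called between the Carm1 shRNA and wild-type lines, with 1 library per point, RA filled and vehicle open, lines from left to right. In Slc9b1 both Carm1 shRNA libraries, at 1.91 FPKM with RA and 3.12 FPKM with vehicle, lie below all libraries of the other lines, which Slc9b2 does not show.

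A different response to RA in the Carm1 shRNA line was tested as an interaction, with 1 residual degree of freedom. Limma called no member and no gene at an adjusted p under 0.05 (0% of all genes), and 12 members (6.82%) and 3.64% of all genes had an unadjusted p under 0.05. The lowest adjusted p over the members was 1.00. Interaction estimates ran from -0.97 to 1.07 over the members. For Slc9b1 the RA response was -0.50, -0.51 and -0.52 in the 3 lines, and the interaction of 0.02 was below its standard error of 0.16. With 1 library per line and treatment, differences of the size seen here were not detectable at an adjusted p under 0.05.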

How the data were processed

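The 6 libraries of J1 cells were read from a single end (51 nucleotides, HiSeq 2500), per the labels' protocols. The deposited values are FPKM, computed by the authors, per the submitters' processing notes, with TopHat2 and Cufflinks against build mm9. The sources used here give no versions, no strand setting and no scaling between libraries. Header notes use the word RPKM for these values. FPKM hold no counts, and the depths given were estimated from the steps of low values.

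Of 20793 rows, 2 with a failed estimate were left out and repeated symbols were reduced to the row with the highest mean, leaving 20460 genes. The 11227 genes averaging 1 FPKM or more were fitted with limma 3.58.1 in R 4.3.3 on log2(FPKM + 1), which understates changes of low genes, as line plus treatment (2 residual degrees of freedom). Benjamini-Hochberg adjustment ran over all these genes, with a threshold of 0.05. The line was kept as a block because each line was measured under both treatments. RA and vehicle libraries of the same line deviated together from the treatment means (correlations of 0.567, 0.476 and 0.607 in the Carm1 shRNA, scramble and wild-type lines). The contrasts between lines came from the same fit. That of the Carm1 shRNA with the wild-type line was added after seeing the data. SD and n refer to the 3 lines under a treatment.

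The members and gene lists were chosen with earlier results of these data known. Members were grouped by substrate from textbook knowledge, and the family of Slc32a1 was assigned after seeing the data. Values of every library were given for the 10 largest rises and falls (called, with 1 direction in the 3 lines, ordered by the line that changed least), the most abundant member of each group and members that differed between lines; other members were chosen for their role. Alternatives covered scaling, pseudocount, filter, trended variance, the line term and leaving out each line. Coordinates are those of the deposited table (build mm9), except promoter windows (GRCm38.p6). Results for some members are not reported here.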

Additional observations from a re-analysis of the deposited data

How the results depend on the processing

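The count of members higher with RA was 90 and of those lower 25. Leaving out 1 line gave 61 to 91 higher and 16 to 27 lower, with the fewest without the scramble line. Among genes of at least 5 FPKM, 51 were higher and the median change was 0.14. Without the filter 50 were higher. Median-of-ratios scaling gave 42 lower and a median of 0.12, and quantile normalization 55 higher, 55 lower and a median of -0.040. With no replicate block, that is without pairing by line, 15 were lower, and the calls of Slc7a6os, Slc7a7 and Slc9a3r1 ended besides those named in the report. Quantile normalization also ended the calls of Slc9a3r2 and Slc37a3, and median-of-ratios scaling that of Slc37a3. Of 115 called members, 47 kept the call under every alternative run, 38 higher and 9 lower. With quantile normalization 15 of the 115 changed sign, among them Slc8a2, at -0.17, which the report names for its level alone. The calls of Slc7a6os and Slc7a7 also ended with the smaller pseudocount of 0.1 FPKM. The Carm1 shRNA line against the scramble line gave 1 member, Slc9b1, without the wild-type line, with a trended variance and over genes of at least 5 FPKM. The scramble against the wild-type line gave 7 with a trended variance, and 3 both over genes of at least 5 FPKM and with median-of-ratios scaling. The Carm1 shRNA against the wild-type line gave 1 without the scramble line, 13 with a trended variance, 1 without the filter and 3 with the smaller pseudocount. The cause of these differences was not tested.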
